A study of Mus musculus with 12 samples.

Results

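The genes described here are receptors through which hypothalamic and steroid signals reach the anterior pituitary, together with the nuclear receptor Nr5a1 and 1 secreted binding protein. They are Ghrhr, Trhr, Gnrhr, Crhr1, Drd2, Crhbp, Esr1 and Nr5a1. These 8 genes were chosen by symbol, and every probe set that the platform annotation assigns to one of them was taken. They were read by 15 of 45037 probe sets, and they are 8 of 18193 genes with a probe set of their own. RNA came from 9 pancreatic tumors, numbered 1 to 5 and 9 to 12, and from 3 tumors of the pituitary, numbered 6, 7 and 8, with 1 Affymetrix mouse array for each tumor. The labels of the latter name the brain, while the study found its head tumors at the pituitary. All 12 tumors were untreated and arose in LSL-MYCN;hGFAP-Cre mice, which carry a MYCN transgene behind a floxed stop cassette, followed by a luciferase reading frame, and express Cre recombinase in GFAP-positive cells. The mice had a mixed genetic background, and both sites share the transgene, the Cre driver and the lack of a tumor-free comparison, since no array of normal tissue was analysed here. Age and sex are not given for the arrayed tumors. Some mice of the study had tumors at both sites, and which arrays share a mouse is not given, so the tests treat the tumors as independent.

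The hypothalamus controls the anterior pituitary through peptides and dopamine released into the portal blood. Each peptide acts on a G protein-coupled receptor of a given hormone cell type. Growth hormone-releasing hormone acts on somatotrophs, thyrotropin-releasing hormone on thyrotrophs and lactotrophs, gonadotropin-releasing hormone on gonadotrophs and corticotropin-releasing hormone on corticotrophs. Dopamine holds prolactin release down through the D2 receptor of lactotrophs. Estrogen receptor alpha is a nuclear receptor through which estradiol acts on lactotrophs and gonadotrophs, and Nr5a1, also called SF-1, is a nuclear receptor required in gonadotrophs, the adrenal cortex and the gonads.

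Values are log2 signals, so a difference of 1 is a doubling of signal, and all differences are given as pituitary minus pancreatic. The files hold no detection call, and the median of each array, 5.45 to 5.69 over the 12 tumors, stands here for background. A signal at or under it may be no more than background. Pancreatic tumors 10, 11 and 12 had the lowest array means (5.97 to 5.98, beside 6.06 to 6.10 elsewhere), and pancreatic tumors 2, 3 and 4 had the highest means of 5 liver markers (12.3 to 14.5, beside 7.12 to 9.99 in the other pancreatic tumors). Since probe sets bind with different efficiency, the level of 1 gene is not set against that of another, and signal was compared between probe sets only to choose the brightest to represent a gene. Site differences were tested with limma over all 45037 probe sets, and adjusted p-values follow Benjamini-Hochberg over all of them.

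Of the 15 probe sets, 4 were higher in the pituitary tumors, 1 each for Crhbp, Trhr, Drd2 and Ghrhr, against a background of 3.45% of all probe sets called in this direction. None of the 15 was higher in the pancreatic tumors in limma or in the unmoderated test, where limma called 1.18% of all probe sets, and the 3 with a lower mean in the pituitary tumors had unadjusted p-values of 0.522 to 0.841 in limma. In all, 11 did not pass in either direction. In 3 of the 15, for Crhbp, Trhr and Ghrhr, all pituitary tumors lay above all pancreatic tumors, which held for 4.02% of all probe sets. The median difference over the 15 probe sets was 0.50 on the log2 scale, beside -0.06 over all probe sets. With each gene represented by its brightest probe set, 4 of 8 genes were higher in the pituitary tumors, beside 4.5% of all genes, and none was higher in the pancreatic tumors, beside 1.61% of all genes. With 3 pituitary tumors the number of arrays limits precision, and in bulk tumor RNA fewer cells of a type and less RNA per cell cannot be told apart. The fit took 1 spread for both sites, weighted towards the 9 pancreatic tumors. The SDs among the pituitary tumors were 1.26 for Ghrhr, 1.40 for Crhbp, 1.86 for Drd2 and 2.82 for Trhr 1449571_at. Among the pancreatic tumors they were 0.19, 0.27, 0.38 and 0.18. The intervals of these 4 may thus be too narrow and their p-values too small.

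**Figure D1:**
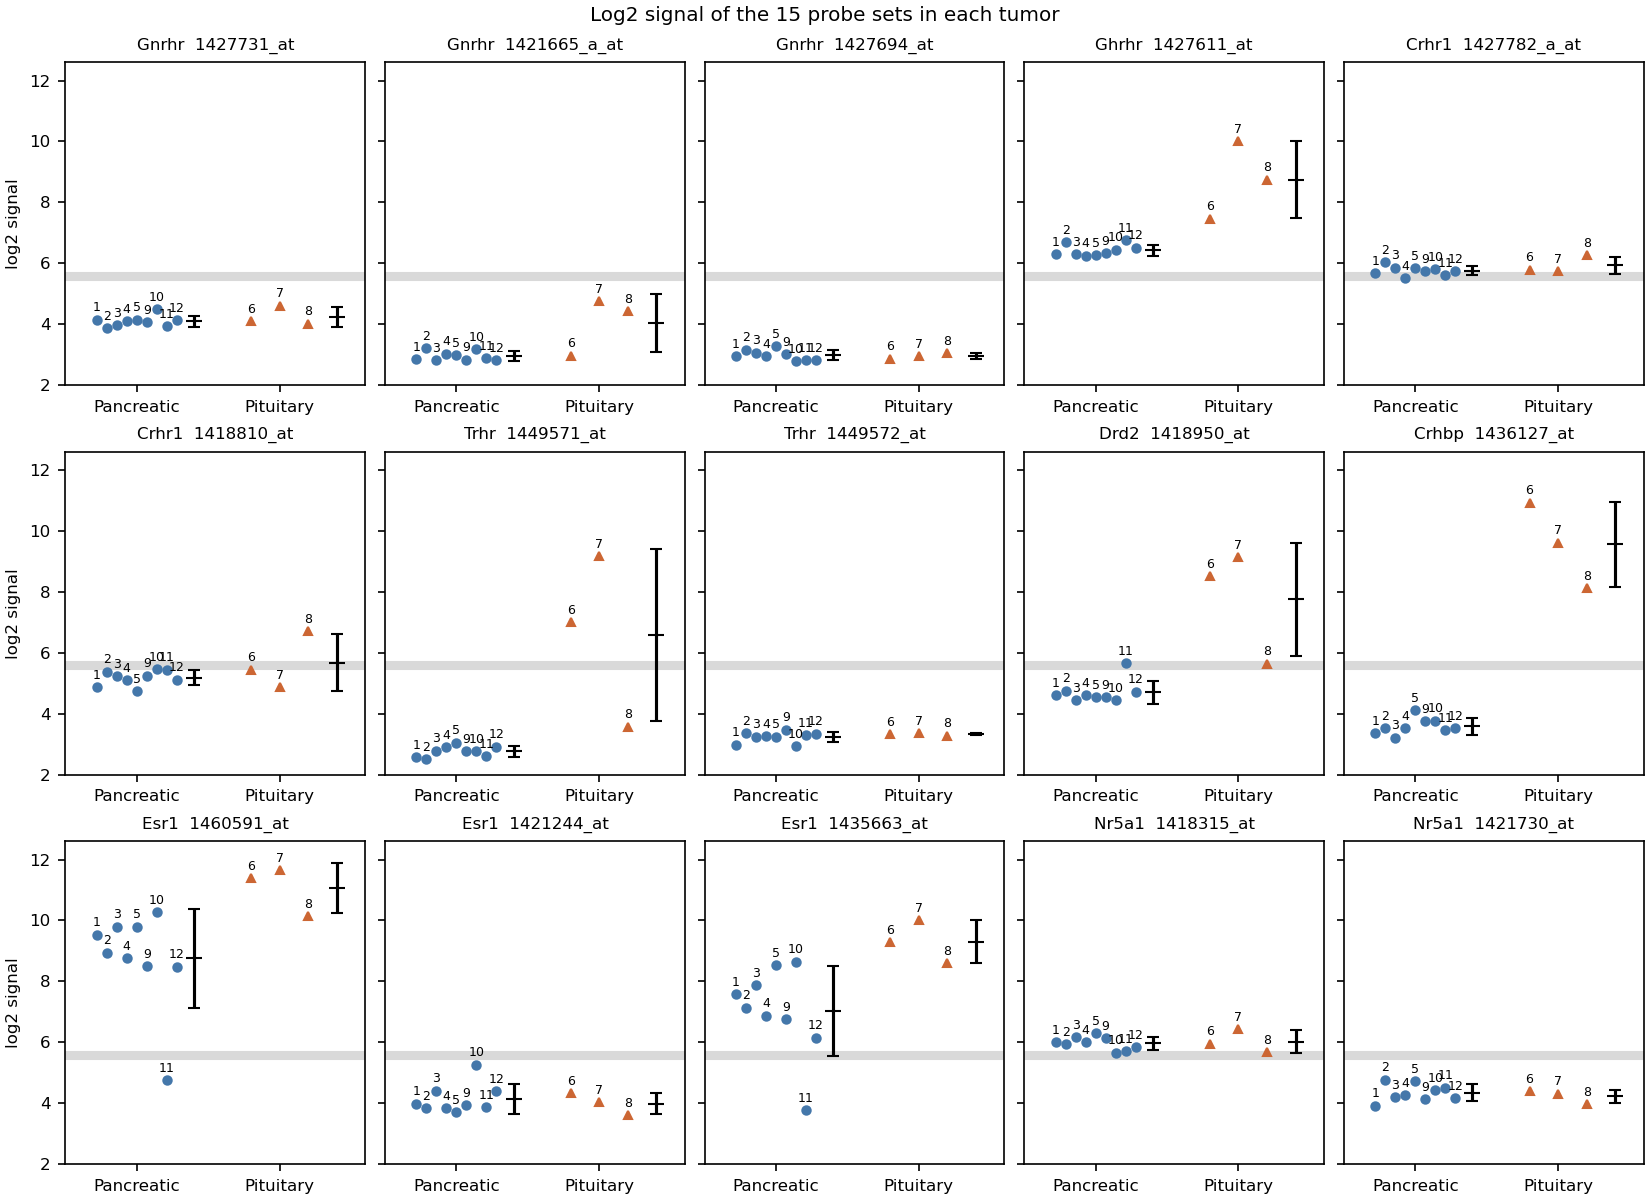
Log2 signal of each of the 15 probe sets in each of the 12 tumors, with blue circles for pancreatic tumors, orange triangles for pituitary tumors, tumor numbers beside the points and bars for the mean and SD of each site. The grey band spans the array medians of 5.45 to 5.69. Crhbp, Trhr 1449571_at and Ghrhr have all pituitary tumors above all pancreatic tumors, and Esr1 1460591_at and 1435663_at are above the band in every tumor except tumor 11.

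Promoter sequence was available from RefSeq for 5 of the 8 genes, on the GRCm38.p6 build, as 250 bases before to 50 bases after a start. The bases that lie before the annotated gene are shown for Crhbp, the gene with the greatest difference between the sites of the 8, for Drd2, the other gene of the 4 called that has a window, and for Gnrhr, which did not pass. Capitals mark matches to TATNCAT, a motif of the Pit-1 type, after the transcription factor Pou1f1 of somatotrophs, lactotrophs and thyrotrophs.
Crhbp: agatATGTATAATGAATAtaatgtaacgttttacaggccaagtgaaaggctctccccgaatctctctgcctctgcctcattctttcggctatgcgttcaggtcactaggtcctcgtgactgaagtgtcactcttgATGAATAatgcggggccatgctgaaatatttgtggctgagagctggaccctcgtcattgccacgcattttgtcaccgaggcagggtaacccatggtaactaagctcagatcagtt
Drd2: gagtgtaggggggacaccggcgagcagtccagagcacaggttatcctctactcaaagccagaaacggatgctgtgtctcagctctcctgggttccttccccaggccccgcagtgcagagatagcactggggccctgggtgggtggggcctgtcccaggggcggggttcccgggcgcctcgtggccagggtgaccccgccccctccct
Gnrhr: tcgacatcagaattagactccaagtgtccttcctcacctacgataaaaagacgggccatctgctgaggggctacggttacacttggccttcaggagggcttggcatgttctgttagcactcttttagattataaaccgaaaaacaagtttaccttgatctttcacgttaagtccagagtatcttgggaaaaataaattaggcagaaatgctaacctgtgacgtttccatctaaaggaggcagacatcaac
The Crhbp stretch is chr13:95444832-95445081 on the minus strand, the Drd2 stretch chr9:49340153-49340359 on the plus strand and the Gnrhr stretch chr5:86197902-86198151 on the minus strand. Crhbp held 3 matches to TATNCAT, each read as its reverse complement, at positions -246, -239 and -115 from the start, with the first pair side by side. A match on either strand was present in 8.84% of 32851 promoter windows of 300 bases. The windows of Drd2, Gnrhr, Crhr1 and Esr1 held no match to these letters. AAGGTCA, the motif of Nr5a1 (4.72% of windows), TGACGTCA, the cAMP response element (1.79%), TAATCC, a Pitx1 motif (7.06%), and GGTCA followed after 3 bases by TGACC, the palindromic estrogen response element (0.07%), were searched on both strands as well. None of these letter strings occurred in the windows of the 5 genes. A match is a string of letters in this window and not a measured binding site.

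Among the receptors for releasing hormones, Ghrhr and Trhr were higher in the pituitary tumors, while Gnrhr and Crhr1 did not pass the test. Ghrhr (chr6:55376295-55388530) encodes the receptor by which growth hormone-releasing hormone raises cAMP in somatotrophs. Its probe set 1427611_at gave log2 signals of 7.47, 10.00 and 8.75 in pituitary tumors 6, 7 and 8, and from 6.26 to 6.76 with a median of 6.33 in the pancreatic tumors. All pituitary tumors were above all pancreatic tumors, with tumor 7 highest and tumor 6 nearest to the pancreatic tumors. The signal was above the array median in all 12 tumors, which held for none of the other called probe sets. The site means were 6.43 ± 0.19 (SD, n = 9) and 8.74 ± 1.26 (SD, n = 3), a log2 difference of 2.31 (SE 0.37, 95% confidence interval 1.51 to 3.11) or 4.96-fold, with adjusted p = 0.00380 in limma. The call was kept under each of the 21 alternatives, with log2 differences from 1.68 without pituitary tumor 7 to 3.57 with tumor 7 alone. With tumor 7 alone the lone tumor is assumed to vary like the others.

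Trhr (chr15:44195924-44235912) encodes the receptor for thyrotropin-releasing hormone, which acts through phospholipase C. Probe set 1449571_at gave log2 signals of 7.00, 9.18 and 3.58 in pituitary tumors 6, 7 and 8, against 2.52 to 3.06 with a median of 2.77 in the pancreatic tumors. The groups did not overlap, but tumor 8 stood far under tumors 6 and 7 and, like all 9 pancreatic tumors, was not above its array median. The log2 difference of the means was 3.82 (SE 0.78, 95% confidence interval 2.13 to 5.51, adjusted p = 0.0165). With the array median in place of the dim pancreatic signals, the signal was at least 2.07-fold higher in the pituitary tumors as a group. This bound rests on tumor 7, since without it the mean of tumors 6 and 8 was 5.29, under the 5.54 of the pancreatic array medians, and it does not hold for tumor 8. The call was lost without tumor 6 (3.61, adjusted p = 0.0981), without pancreatic tumors 2, 3 and 4 (3.81, adjusted p = 0.0599) and without pancreatic tumors 10, 11 and 12 (3.82, adjusted p = 0.100), while the difference was 2.53 without tumor 7 and 5.33 without tumor 8. The second probe set, 1449572_at, lay under the array median in all 12 tumors and differed by 0.09 (95% confidence interval -0.19 to 0.37, adjusted p = 0.753). The probe sets of Trhr thus gave different results.

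Gnrhr (chr5:86180754-86197901) encodes the receptor for gonadotropin-releasing hormone. None of its 3 probe sets was above the array median in any tumor. For 1421665_a_at the log2 signals were 2.97, 4.76 and 4.42 in pituitary tumors 6, 7 and 8, and 2.82 to 3.22 with a median of 2.89 in the pancreatic tumors. Tumors 7 and 8 were above all pancreatic tumors, and tumor 6 was within their range. The difference was 1.09 (SE 0.28, 95% confidence interval 0.47 to 1.71) and did not pass, with adjusted p = 0.0509. Without tumor 6 it was 1.63 with adjusted p = 0.000242, and without pancreatic tumor 2 it was 1.12 with adjusted p = 0.0467. The other probe sets differed by 0.15 (1427731_at, 95% confidence interval -0.20 to 0.49) and -0.03 (1427694_at, -0.31 to 0.25). Of the gonadotropin subunits, Fshb had log2 signals of 3.27, 7.78 and 6.07 in tumors 6, 7 and 8, Lhb 5.43, 6.45 and 5.39, and Cga, which thyrotropin shares, 11.6, 14.7 and 11.0. Tumor 6 was lowest for Fshb, and tumor 8 for Lhb and Cga.

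Crhr1 (chr11:104130463-104175523) encodes the receptor for corticotropin-releasing hormone. Its probe set 1427782_a_at was near the array median at both sites, with 5.79, 5.73 and 6.26 in the pituitary tumors and 5.52 to 6.05 in the pancreatic tumors. The difference was 0.17 (95% confidence interval -0.14 to 0.48, adjusted p = 0.556). Probe set 1418810_at gave 5.45, 4.87 and 6.71 in tumors 6, 7 and 8 against 4.74 to 5.46, so only tumor 8 was above all pancreatic tumors and above its array median. The difference of 0.50 (95% confidence interval -0.16 to 1.15) did not pass, with adjusted p = 0.395, and was -0.02 without tumor 8. Both intervals leave room for a difference in either direction.

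Drd2 (chr9:49340360-49408177) encodes the D2 dopamine receptor, which couples to inhibitory G proteins. Log2 signals of 1418950_at were 8.51, 9.13 and 5.64 in pituitary tumors 6, 7 and 8, and 4.44 to 5.67 with a median of 4.61 in the pancreatic tumors. Tumors 6 and 7 were above all pancreatic tumors, while tumor 8 was at the level of pancreatic tumor 11, which stood apart from the other 8. Of the pancreatic tumors, 8 of 9 were not above the array median. The means of 4.70 ± 0.38 (SD, n = 9) and 7.76 ± 1.86 (SD, n = 3) differed by 3.06 (SE 0.55, 95% confidence interval 1.86 to 4.26) on the log2 scale, with adjusted p = 0.00833 in limma. The call was lost without tumor 6 (2.68, adjusted p = 0.0689). Without tumor 7 the difference was 2.37 and without tumor 8 it was 4.12, both called.

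Crhbp (chr13:95431376-95444831) encodes a secreted protein that binds corticotropin-releasing hormone and urocortin and keeps them from their receptors. It showed the greatest difference of the 8 genes. Log2 signals of 1436127_at were 10.93, 9.62 and 8.12 in pituitary tumors 6, 7 and 8, and 3.21 to 4.13 with a median of 3.52 in the pancreatic tumors. The groups lay far apart, all pituitary tumors were above their array medians and no pancreatic tumor was. The means of 3.58 ± 0.27 (SD, n = 9) and 9.56 ± 1.40 (SD, n = 3) differed by 5.97 (SE 0.42, 95% confidence interval 5.07 to 6.88), with adjusted p = 5.79e-06. Set against the array medians, the signal was at least 16.2-fold higher in the pituitary tumors, and at least 10.1-fold higher without tumor 6. The call was kept under each of the 21 alternatives, with differences from 5.29 without tumor 6 to 6.69 without tumor 8.

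**Figure D2:**
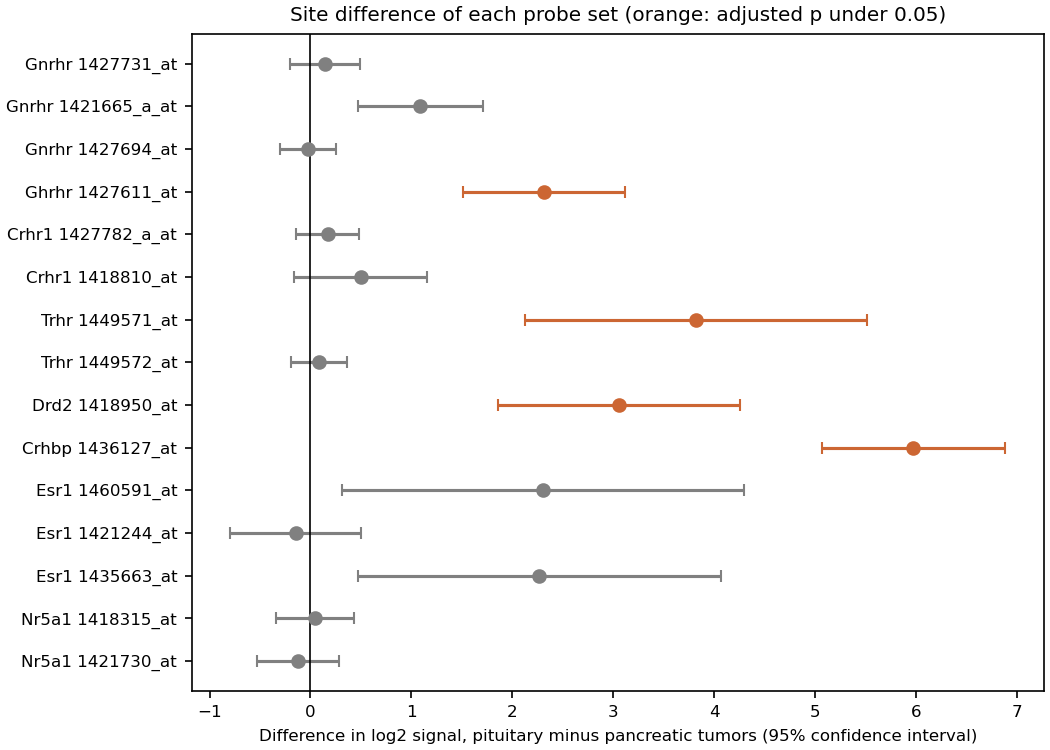
Difference in log2 signal between pituitary and pancreatic tumors for each of the 15 probe sets, as points with 95% confidence intervals, orange where the adjusted p was under 0.05. Crhbp (5.97), Trhr 1449571_at (3.82), Drd2 (3.06) and Ghrhr (2.31) passed, and the wide intervals of Esr1 1460591_at (0.31 to 4.29) and 1435663_at (0.47 to 4.07) did not.

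Esr1 (chr10:4611989-5005633), encoding estrogen receptor alpha, was above the array median in 11 of 12 tumors, at both sites. Log2 signals of 1460591_at were 11.39, 11.66 and 10.14 in pituitary tumors 6, 7 and 8, and 4.76 to 10.26 with a median of 8.94 in the pancreatic tumors. Pancreatic tumor 11 was the only one of the 12 not above its array median, and the next lowest, tumor 12, was at 8.48. Tumor 8 lay under pancreatic tumor 10, so the groups overlapped. The difference of 2.30 (SE 0.91, 95% confidence interval 0.31 to 4.29) did not pass, with adjusted p = 0.187, and without pancreatic tumor 11 it was 1.80 with adjusted p = 0.0504.

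A second probe set designed to the same Esr1 transcript, 1435663_at, repeated the order of the extremes. It gave 9.29, 10.01 and 8.61 in the pituitary tumors, and from 3.77 in tumor 11 to 8.64 in tumor 10, with a median of 7.14, in the pancreatic tumors. The difference was 2.27 (95% confidence interval 0.47 to 4.07, adjusted p = 0.151). With array weights it passed, at 2.26 and adjusted p = 0.0349. The third probe set, 1421244_at, was not above the array median in any tumor and differed by -0.15 (95% confidence interval -0.79 to 0.50). Among the pancreatic tumors alone, the SD of Esr1 was 1.63 for 1460591_at and 1.47 for 1435663_at, at percentiles 98.1 and 97.3 of all probe sets. Tumor 11 also had the lowest mean log2 signal of 6 stromal markers, 6.34 in a pancreatic range of 6.34 to 9.25. The part of stromal cells in the spread of Esr1 was not tested.

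Nr5a1 (chr2:38692656-38714542) did not separate the sites. Probe set 1418315_at was slightly above the array median in all 12 tumors, with 5.96, 6.43 and 5.68 in pituitary tumors 6, 7 and 8 and 5.66 to 6.30 in the pancreatic tumors. The means of 5.97 ± 0.21 (SD, n = 9) and 6.02 ± 0.38 (SD, n = 3) differed by 0.05 (95% confidence interval -0.34 to 0.44, adjusted p = 0.906). Probe set 1421730_at was not above the array median in any tumor and differed by -0.12 (95% confidence interval -0.53 to 0.28). The sign of both small differences turned under some alternatives.

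The pituitary tumors differed among themselves in which receptors were high. Tumor 7 had the highest signals of Ghrhr, Trhr, Drd2 and Esr1. Tumor 8 had the lowest of Trhr, Drd2, Esr1 and Crhbp, and tumor 6 had the highest Crhbp and the lowest Ghrhr. Markers of brain cells moved in another order. The mean log2 signal of 9 glial markers was 10.4 in tumor 6, 6.21 in tumor 7 and 10.5 in tumor 8, with 9, 4 and 9 of them above the array median, against 4.85 to 6.95 and 2 to 7 of 9 in the pancreatic tumors. For 10 neuronal markers it was 10.8, 7.04 and 10.5, against 5.28 to 7.64, and for 7 oligodendrocyte markers 8.67, 5.72 and 8.08, against 5.59 to 5.90. Of the neuronal markers 10, 7 and 10 were above the array median in tumors 6, 7 and 8, against 3 to 7 in the pancreatic tumors. Of the oligodendrocyte markers 7, 3 and 5 were, against 3 to 4. Single markers of tumor 7 lay on both sides of its array median, with 4 glial and 7 neuronal markers above it. Gad1 and Gjb6 are given only as examples of markers below it. Gad1, of inhibitory neurons, was at 3.05 in tumor 7 and at 11.3 and 12.5 in tumors 6 and 8. Gjb6, of astrocytes, was at 2.98 in tumor 7 and at 8.26 and 9.21 in tumors 6 and 8.

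In tumor 7 the means of all 3 lists of brain cell markers were within the pancreatic range. For the glial markers only pancreatic tumor 2 (6.95) was above tumor 7 (6.21), and pancreatic tumor 3 came next at 5.74. Measured with tumor 7 alone, the log2 differences were 6.04 for Crhbp, 6.41 for Trhr, 4.43 for Drd2 and 3.57 for Ghrhr. Gnrhr 1421665_a_at differed by 1.80, with tumor 7 under its array median (4.76 against 5.53). Esr1 1460591_at differed by 2.90. With 1 pituitary tumor the spread comes from the pancreatic tumors alone, so a p-value does not measure variation among pituitary tumors. Tumor 8, with the lowest Trhr and Drd2, also differed from tumors 6 and 7 in sex-linked transcripts. Eif2s3y, a Y-linked gene, was at 9.42 in tumor 8 and at 4.27 and 4.56 in tumors 6 and 7, while Xist was at 7.62 in tumor 8 and at 11.4 and 11.8 in the others. The part of sex and of brain tissue in the spread among these tumors was not tested.

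**Figure D3:**
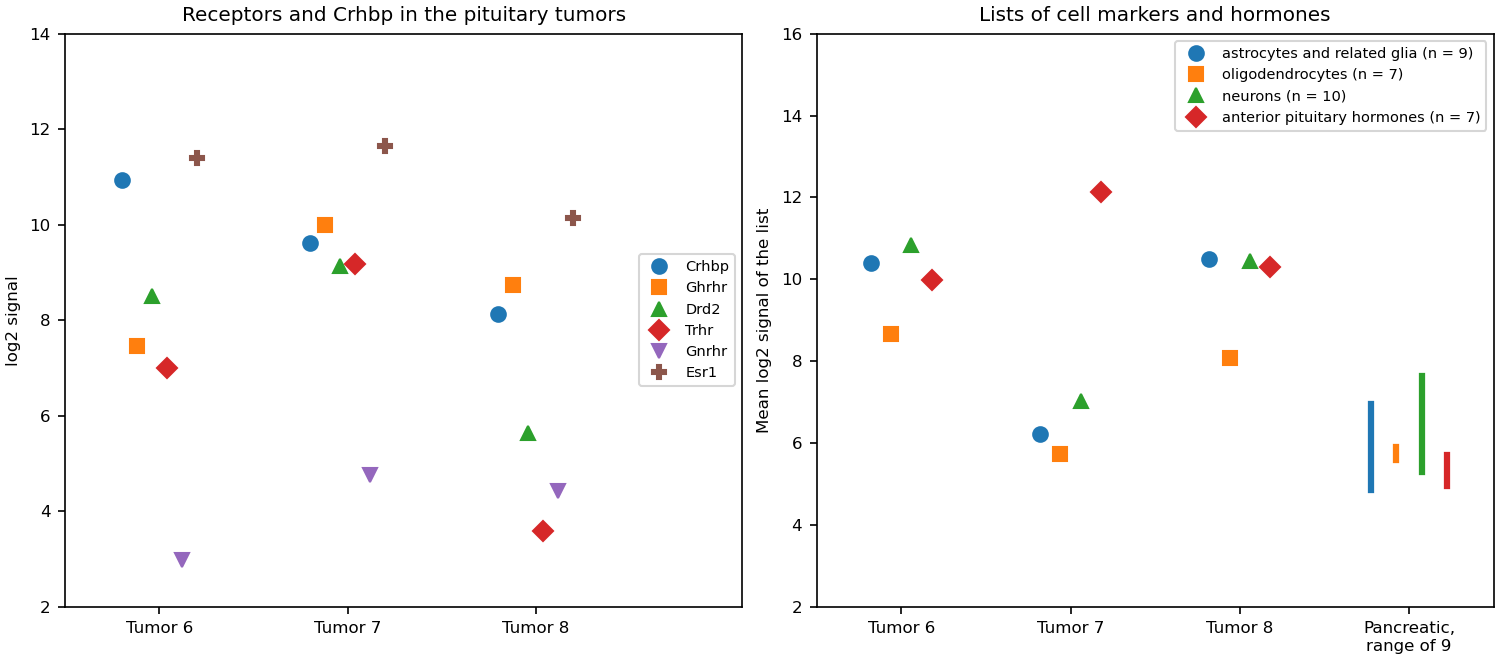
Left, log2 signal of 6 of the 8 genes in pituitary tumors 6, 7 and 8 (each by its probe set with the greatest difference between the sites), to be compared between tumors within a gene. Right, mean log2 signal of 3 lists of brain cell markers and of the pituitary hormones in the same tumors, with vertical bars for the range over the 9 pancreatic tumors. Tumor 7 has the highest Ghrhr, Trhr, Drd2 and Esr1 and the lowest means of glial (6.21), oligodendrocyte (5.72) and neuronal (7.04) markers.

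Genes around these receptors were taken from 9 lists, from ligands to second messengers. Of 124 listed genes 111 were measured, of which 22 were higher in the pituitary tumors, 3 were higher in the pancreatic tumors and 86 did not pass. The count of 22 became 13 without pituitary tumor 6 and 13 without tumor 8, and the count of 3 became 8 without pancreatic tumor 2 and 1 without tumor 8. Beside the 4.5% and 1.61% of all genes given above, their median difference was 0.13, against -0.03 over all genes. No gene of the 10 measured hypothalamic ligands passed in limma, where 3 were higher in the pituitary tumors at an unadjusted p under 0.05. Crh, a ligand of Crhr1 and of Crhbp, had log2 signals of 7.56, 2.84 and 4.57 in tumors 6, 7 and 8 and 2.61 to 3.04 in the pancreatic tumors, and its difference of 2.17 did not pass (adjusted p = 0.0868). The difference was 0.89 (adjusted p = 0.241) without tumor 6 and 3.25 (adjusted p = 0.00270) without tumor 7, and it passed with array weights (3.03, adjusted p = 0.0126). Crh was not above the array median in any pancreatic tumor or in pituitary tumors 7 and 8. With the array median in place of the dim pancreatic signals, the difference of Crh was -0.55, so the pituitary tumors as a group were not above background. Ghrh differed by -0.11 and Trh by 0.32, neither of which passed. Of 5 genes of dopamine supply, Gch1, the first enzyme of the cofactor of tyrosine hydroxylase, was higher in the pancreatic tumors, at 9.57 to 12.3 against 5.46, 5.67 and 5.94 in the pituitary tumors. Its difference of -5.56 (SE 0.44, adjusted p = 1.87e-05) was kept under each alternative. No gene of 7 measured in steroid synthesis passed in limma, where 2 were higher in the pancreatic tumors at an unadjusted p under 0.05.

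Of 15 other receptors for hypothalamic or gut-brain peptides and dopamine, none was higher in the pituitary tumors in limma, and 1 was at an unadjusted p under 0.05. Ghsr, the ghrelin receptor, and Vipr1, a receptor of vasoactive intestinal peptide, were higher in the pancreatic tumors. Ghsr was at 3.61, 3.41 and 3.84 in the pituitary tumors, none above the array median, and at 3.79 to 8.20 with a median of 6.87 in the pancreatic tumors, where tumor 2 alone lay at the pituitary level. Its difference of -3.19 (SE 0.69, adjusted p = 0.0221) did not pass without tumor 6 (adjusted p = 0.102), tumor 7 (0.0600) or tumor 8 (0.0842), without pancreatic tumors 10, 11 and 12 (0.102), or in the unmoderated test (0.0515). Against the array medians of the pituitary tumors it was at least 2.35-fold higher in the pancreatic tumors. Vipr1 differed by -1.67 (SE 0.31, adjusted p = 0.00969) with no overlap, and did not pass without tumor 8 (-1.55, adjusted p = 0.0651), without tumors 6 and 8 (-1.63, adjusted p = 0.360) or without pancreatic tumors 10, 11 and 12 (-1.46, adjusted p = 0.0589). Its second probe set differed by -0.49 and did not pass.

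Among 20 other steroid and nuclear receptors, 4 were higher in the pituitary tumors, and the list's median difference was -0.18. Pgr, the progesterone receptor and a known target of estrogen receptor alpha, had log2 signals of 8.52, 7.70 and 7.01 in tumors 6, 7 and 8 and 3.87 to 6.87 with a median of 4.48 in the pancreatic tumors. The sites did not overlap, and tumor 4 was the highest of the pancreatic tumors. The difference was 3.01 (SE 0.54, adjusted p = 0.00830), and it did not pass without tumor 6 (2.62, adjusted p = 0.0690), without tumors 6 and 8 (2.97, adjusted p = 0.264) or without pancreatic tumors 10, 11 and 12 (2.78, adjusted p = 0.0671). Its other probe sets differed by 1.18 and 0.28 and did not pass. Nr3c2, the mineralocorticoid receptor, differed by 2.62 (adjusted p = 0.0223) and did not pass without tumor 6 (adjusted p = 0.0830), tumor 8 (0.143), tumors 6 and 8 (0.744) or pancreatic tumors 10, 11 and 12 (0.109), or in the unmoderated test (0.0512). Rarb, a retinoic acid receptor, differed by 1.80 (adjusted p = 0.00441), and by 0.79 with adjusted p = 0.488 when tumors 6 and 8 were both left out. It was not above the array median in any pancreatic tumor or in pituitary tumor 7, so that it was at least 1.62-fold higher in the pituitary tumors as a group. Rxrg, a retinoid X receptor, differed by 1.67 (adjusted p = 0.0454) and lost its call under 15 of 21 alternatives, with an adjusted p of up to 0.171.

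Of 8 estrogen-responsive genes, Greb1 alone passed. Its log2 signals were 6.59, 6.93 and 4.84 in tumors 6, 7 and 8 and 3.66 to 4.45 in the pancreatic tumors, so that tumor 8 was lowest of the pituitary tumors, as for Esr1. The difference was 1.98 (SE 0.35, adjusted p = 0.00690), and it did not pass without tumor 6 (1.75, adjusted p = 0.0587) or without pancreatic tumors 10, 11 and 12 (1.89, adjusted p = 0.0616). With the array median in place of the dim pancreatic signals, Greb1 was higher in the pituitary tumors by at least 0.58 on the log2 scale, where tumor 8 was not above its array median either. Probe set 1419593_at of Greb1 differed by 2.36 (adjusted p = 0.00108), and the other probe sets, by 0.13 and -0.34, did not pass. The remaining 7 genes of the list did not pass, and the list's median difference was 0.21. By the probe set that represents Greb1, no pancreatic tumor was above the array median, including those with the highest Esr1. By 1445324_s_at, pancreatic tumor 11 was above its array median (5.64 against 5.45).

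**Figure D4:**
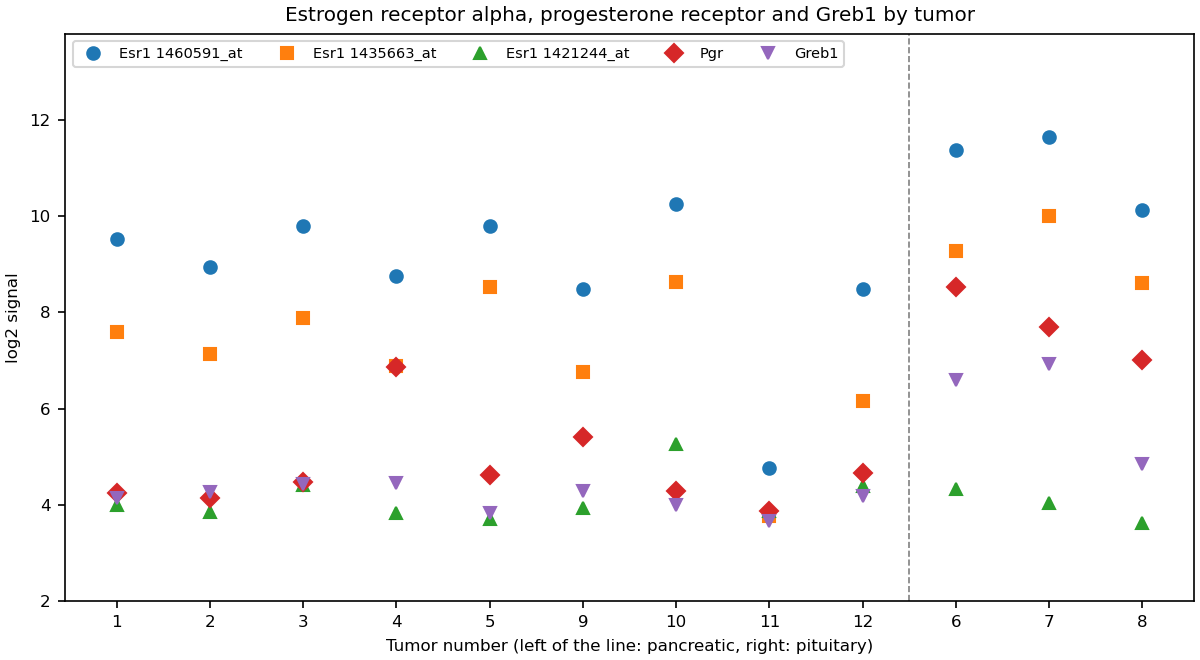
Log2 signal of the 3 Esr1 probe sets, Pgr and Greb1 in each tumor, with pancreatic tumors left of the dashed line and pituitary tumors right of it, to be compared between tumors within a probe set. Esr1 1460591_at falls to 4.76 in pancreatic tumor 11, and Greb1 stays at 3.66 to 4.45 in all 9 pancreatic tumors.

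The hormones that these receptors regulate were the list with the greatest share of calls of the 9, with 6 of 7 higher in the pituitary tumors and a median difference of 5.16. Prl differed by 9.69, Gh by 8.82, Cga, the alpha subunit of the glycoprotein hormones, by 7.62 and Tshb by 5.16, each with an adjusted p of at most 5.13e-04 and called under each alternative. Cga and Tshb were not above the array median in any pancreatic tumor, and were at least 121-fold and 22.2-fold higher in the pituitary tumors. Tshb, of thyrotrophs, was at 9.31, 12.5 and 8.20 in tumors 6, 7 and 8 and so had the order of Trhr. Drd2, Esr1 1460591_at, Greb1, Lhb and Cga had this order as well. Ghrhr, Gnrhr 1421665_a_at and Fshb were lowest in tumor 6 instead, and Crhbp was highest there. With 3 tumors few orders are possible, so a shared order does not link genes. For the check of the labels, the mean of 7 endocrine pancreas markers was 5.26 to 5.42 in the pituitary and 7.38 to 10.4 in the pancreatic tumors. After their values were seen, the rest of the list was named as well. Pomc differed by 4.84 (adjusted p = 0.00213), Fshb by 2.67 (adjusted p = 0.0324) and Lhb by 0.23 (95% confidence interval -0.35 to 0.81, adjusted p = 0.674). The call of Fshb was lost without any one of pituitary tumors 7 (adjusted p = 0.0846) and 8 (0.160) or pancreatic tumors 3, 4, 10, 11 and 12 (0.0525 to 0.0603), with array weights (0.0802) and in the unmoderated test (0.0670). Fshb was not above the array median in any pancreatic tumor or in tumor 6.

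Of 9 measured pituitary lineage factors, 4 were higher in the pituitary tumors, namely Six6 (5.62), Lhx3 (3.89), Pitx1 (2.61) and Gata2 (1.93), while the median of the list was 1.86. Six6 was not above the array median in any pancreatic tumor and was at least 13.7-fold higher in the pituitary tumors. Gata2 did not pass without tumors 6 and 8 (1.72, adjusted p = 0.190) or without pancreatic tumors 10, 11 and 12 (1.75, adjusted p = 0.0561), and a second probe set of Gata2 (0.70, adjusted p = 0.317) and of Lhx3 (0.84, adjusted p = 0.116) did not pass, whereas that of Pitx1 did (3.35). Of 30 genes of G proteins and of cAMP or phospholipase C signalling, 7 were higher in the pituitary tumors and none in the pancreatic tumors, with a median of 0.40. Kcnj3, a channel opened by G protein subunits, differed by 4.09 (adjusted p = 0.0104). It did not pass without tumor 6 (3.90, adjusted p = 0.0692), tumor 8 (4.11, adjusted p = 0.0523) or pancreatic tumors 10, 11 and 12 (3.59, adjusted p = 0.0553). With tumor 7 alone the difference was 3.75. Of its other probe sets, 1444025_at (2.72, adjusted p = 0.00173) and 1421468_at (0.78, adjusted p = 0.0267) passed in limma. Probe set 1444336_at (0.74, adjusted p = 0.0576) did not. Adcy1, an adenylyl cyclase, had 11.2, 6.59 and 12.4 in tumors 6, 7 and 8 and 5.74 to 6.74 in the pancreatic tumors, with tumor 7 lowest as for the glial and neuronal markers. Its difference of 3.91 (adjusted p = 0.0246) did not pass without tumor 6 (3.34, adjusted p = 0.157) or tumor 8 (2.74, adjusted p = 0.148), without pancreatic tumors 2, 3 and 4 (adjusted p = 0.0771) or 10, 11 and 12 (0.125), or in the unmoderated test (0.0559), and was 0.41 with tumor 7 alone. Its second probe set differed by 1.28 (adjusted p = 0.104). Arrb1, encoding beta-arrestin 1, was lowest in tumor 7 as well, with 8.02, 5.66 and 8.54, and its difference of 2.20 (adjusted p = 0.0207) did not pass without tumor 6 (adjusted p = 0.138) or tumor 8 (0.132), was 0.45 with tumor 7 alone, and did not pass without pancreatic tumors 2, 3 and 4 (0.0744) or 10, 11 and 12 (0.116). Gnai1, an inhibitory G protein subunit through which Drd2 can act, was at 12.4, 11.9 and 12.2 against 7.49 to 11.0. Its difference of 2.62 (adjusted p = 0.0426) lost its call under 12 of 21 alternatives, among them without tumor 6 (adjusted p = 0.180). Its other probe sets, 1434440_at (2.85, adjusted p = 0.0263) and 1427510_at (2.44, adjusted p = 0.0254), passed in limma.

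**Figure D5:**
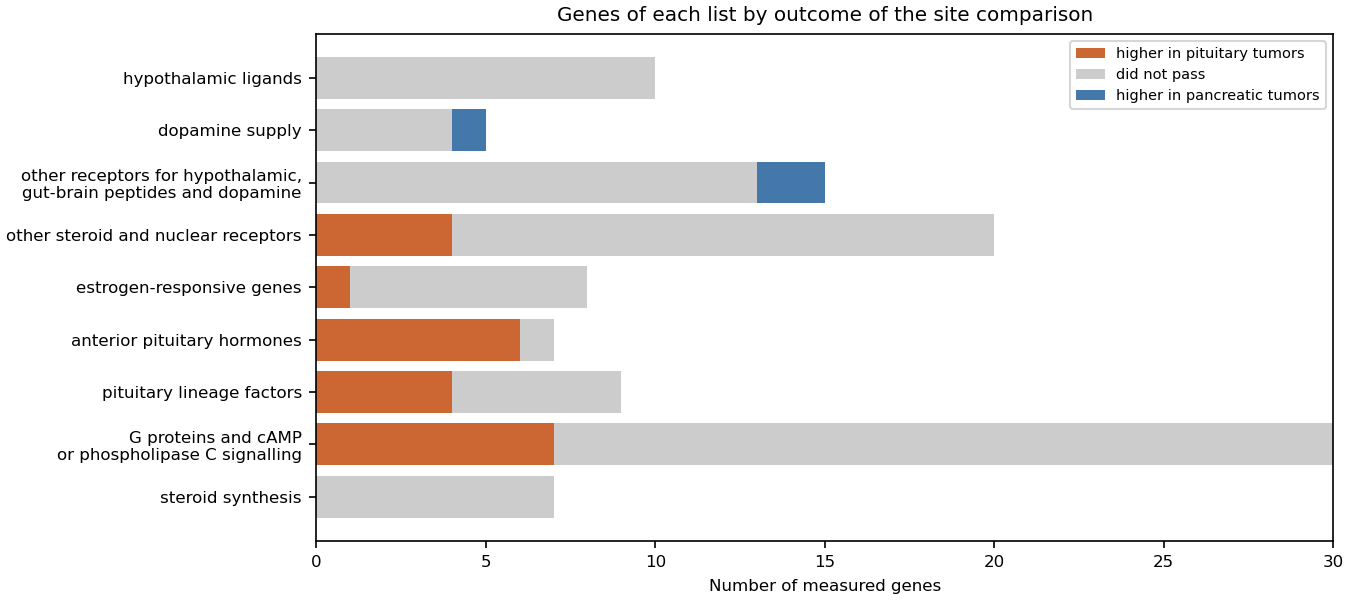
Number of measured genes of each of 9 lists that were higher in the pituitary tumors (orange), higher in the pancreatic tumors (blue) or did not pass (grey). Hormones have 6 of 7 and lineage factors 4 of 9 genes higher in the pituitary tumors, and the ligands and steroid synthesis none in either direction.

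Genes whose pattern was most like that of a receptor were sought among 11128 genes by Pearson's r over the 12 tumors. This was done for the 4 genes with an SD of at least 0.5 and signal above the array median in at least 3 tumors. The r values are a description, because the difference between the sites is shared by many genes, and r over the 9 pancreatic tumors is given beside them. Crhbp was not above the array median in any pancreatic tumor, and Drd2 was in tumor 11 alone. For Crhbp and Drd2, r within the pancreatic tumors may thus reflect no more than background. Nearest to Ghrhr were Pitx1 (0.975 over all tumors, 0.226 within the pancreatic tumors), Calcr (0.970, 0.391) and Lrmda (0.956, 0.510). Nearest to Drd2 were Klhl30 (0.968, 0.666), Rbm20 (0.968, 0.387) and Eno3 (0.960, 0.454). Nearest to Crhbp were Omg (0.996, 0.611), Slc15a2 (0.988, 0.785) and Brinp3 (0.988, 0.0485). For Esr1 the nearest genes were Klhl13 (0.905, 0.892), Gpc4 (0.903, 0.923) and Dock1 (0.902, 0.875), and here r stayed near its value within the pancreatic tumors, which include tumor 11.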

How the data were processed

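Total RNA of primary tumors was hybridized to Affymetrix MG-430_2.0 arrays, 1 per tumor. The values deposited for each probe set are log2 signals. Partek and, for a further analysis, RMA are named in the methods, and which made these values is not stated. They were used as deposited. After removal of 64 control probe sets, 45037 were fitted in R 4.3.3 with limma 3.58.1 (lmFit, eBayes), as pituitary minus pancreatic, with a threshold of 0.05 on the adjusted p. The fit was tested on simulated data drawn with 1 spread for both sites, so this could not test the assumption of a shared spread. Symbols came from the platform annotation, and loci and promoters from RefSeq. A gene was represented by its 1-symbol probe set with the highest mean of both site means. Python 3.11.15, numpy 2.4.6, pandas 2.3.3 and matplotlib 3.10.9 were used.

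The genes, lists, tests and alternatives were chosen with earlier results of these data known. All probe sets of the 8 genes are named. From each list the text names up to 4 called genes by size and the ligands of the receptors, and for the receptors with an SD of at least 0.5 that were above the array median in at least 3 tumors, the 3 genes of highest r (range at least 1). No slide or scan batch is given. The alternatives changed the scaling (quantile normalization, median centring), the model (array weights, trended and robust variance, no moderation) or the probe sets (only those above the median, or the mean over those of a gene). Others left out each tumor in turn, or together pituitary tumors 6 and 8, pancreatic tumors 2, 3 and 4, or pancreatic tumors 10, 11 and 12.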

Additional observations from a re-analysis of the deposited data

Results flagged for a closer look

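In 9 of 45 probe sets examined, the highest or lowest of the 9 pancreatic tumors stood apart from the other 8 by Dixon's test, which chance alone does in about 1 of 20 groups. Among the 15 probe sets of the 8 genes there were 4. Esr1 1460591_at was lowest in tumor 11, at a log2 signal of 4.76 with the next tumor at 8.48. Drd2 was highest in tumor 11, at 5.67 with the next at 4.76. Both changes were in the same tumor, in opposite directions. Gnrhr 1427731_at was highest in tumor 10, at 4.51, and Esr1 1421244_at was highest in tumor 10, at 5.27, both under the array median. Of the list genes, tumor 2 was lowest for Ghsr (3.79), Pomc (4.85) and Vipr1 (5.92) and highest for Pitx1 (5.64). Tumor 2 also had the lowest mean log2 signal of 7 endocrine pancreas markers (7.38, in a range of 7.38 to 10.4) and the highest mean of 5 liver markers (14.5, in a range of 7.12 to 14.5). Tumor 5 was highest for Prl, at 8.22 with the next tumor at 5.74. No cause of these values was tested.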

How the results depend on the processing

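No paired analysis was possible because which arrays share a mouse is not given. The number of probe sets higher in the pituitary tumors was 3 to 5 over 21 alternatives, beside 4, of 15 tested in each except the filter, which kept 7 of them, and in the other direction it was 0 in each. The calls of Crhbp and Ghrhr were kept under each alternative. With tumors left out in turn, Trhr 1449571_at differed by 2.53 to 5.33 and Drd2 by 2.37 to 4.12, and both missed the threshold without tumor 6. Trhr also missed it without pancreatic tumors 2, 3 and 4 (3.81, adjusted p = 0.0599) and without tumors 10, 11 and 12 (3.82, adjusted p = 0.100), and was not tested under the filter. The pathway genes higher in the pituitary tumors, 22 in all, were 13 to 23 with tumors left out in turn, and 10 without tumors 6 and 8 or without tumors 10, 11 and 12. Those higher in the pancreatic tumors, 3 in all, were 1 to 8 with tumors left out in turn, 8 with array weights, and 1 without tumors 6 and 8 or without tumors 10, 11 and 12.

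Differences near 0, none of them called, changed sign. Gnrhr 1427694_at was 0.018 after quantile normalization, 0.0097 without pancreatic tumor 5, 0.020 without tumor 6 and 0.014 without tumors 2, 3 and 4, in a range of -0.074 to 0.020 with tumors left out in turn, and Gnrhr 1427731_at was -0.040 without tumor 7 (range -0.040 to 0.26). Nr5a1 1418315_at was -0.027 after quantile normalization, -0.0052 with array weights, -0.16 without tumor 7 (range -0.16 to 0.22) and -0.070 without tumors 10, 11 and 12, and Nr5a1 1421730_at was 0.034 with array weights and 0.0049 without tumor 8 (range -0.21 to 0.0049). Crhr1 1418810_at was -0.021 without tumor 8 (range -0.021 to 0.90) and -0.31 without tumors 6 and 8, and Crhr1 1427782_a_at was -0.028 without tumors 6 and 8. Esr1 1421244_at was 0.040 without tumor 8 (range -0.31 to 0.040) and 0.036 without tumors 10, 11 and 12. Gnrhr 1421665_a_at passed after quantile normalization (adjusted p = 0.0435) and with a trended and robust variance (adjusted p = 0.0399). The cause of these changes was not tested. Over all probe sets, 1552 were higher in the pituitary and 533 in the pancreatic tumors. These counts were 3179 and 1849 with array weights, 967 and 419 unmoderated, 656 and 172 without tumor 6, 760 and 180 without tumor 8, 488 and 61 without tumors 6 and 8, 571 and 214 without tumors 10, 11 and 12, and 1911 and 886 without tumor 2. Signals under the array median, which held for all 3 Gnrhr probe sets, limit what could be seen of low receptors.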
